A study of Mus musculus with 6 samples.

Results

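The 59 genes described here encode the initiation and elongation factors of cytosolic protein synthesis, together with inhibitors and modifying enzymes that carry a factor's name. They were taken from the deposited tables by symbol. The symbol had to begin with Eif and a digit or with Eef1 or Eef2, the 4 kinase genes that begin with Eif2ak were left out, and the gene had to reach 1 FPKM (fragment count scaled to transcript length and to library size) in at least 3 of 6 libraries. Among 21851 genes, 61 had such a symbol, and Eef1a2 and Eif4e1b did not reach this level, at means of 0.0041 and 0 FPKM. Just inside it were Eif3j2, with a mean of 1.74 FPKM, and Eif5a2, with 1.81.

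Wild-type (WT) mice were fed a high cholesterol diet (HCD) or a control diet (CD) for 3 months, and each diet has 3 libraries. Marrow LT-HSCs, the long-lived stem cells of blood, were sorted by a gate that keeps lineage-negative cells with c-Kit and Sca1 on their surface and without CD135 and CD34. The labels state no strain, age, sex or pooling of mice. They also do not tie libraries to separate animals, and the p-values thus describe the spread between these libraries, which may be technical.

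Depth, read from the size of 1 read in low values, was 18800000 to 19960000 reads or fragments per library. HCD replicate 2 stood apart from HCD replicates 1 and 3, and values that rest on it are given with and without it. The gate's own transcripts were only partly as named: Kit averaged 120 and Ly6a (Sca1) 64.2 FPKM, but Cd34 averaged 464 and Flt3 (CD135) 109, and the stem cell gene Slamf1 2.60. Of 10 marker genes of granulocyte and monocyte progenitors 9 rose under HCD, their sum going from 915 to 945 FPKM in CD to 1696 to 1863 in HCD. Of 15 immediate early genes 13 rose, with sums of 2937 to 3145 in CD and 5835 to 7471 in HCD. Markers of mature neutrophils summed to 11.96 to 12.12 FPKM in CD and 37.7 to 45.5 in HCD, and all 5 of those tested rose. All 4 megakaryocyte markers tested rose (sums of 53.3 to 59.3 and 86.7 to 102 FPKM), and so did both tested genes of the T and NK cell list (sums of 103 to 108 and 127 to 150 FPKM, nearly all of it Nkg7), of which Cd3e, Cd3d and Ncr1 were under 0.1 FPKM in every library. Of 5 macrophage genes tested 1 rose and 3 fell, with sums of 21.3 to 22.6 and 18.2 to 20.6 FPKM. The part of these genes and cells in the results below was not tested, and in such bulk samples fewer cells of a type and less RNA per cell cannot be told apart.

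Translation begins when eIF2 brings the initiator tRNA to the small ribosomal subunit, helped by eIF1, eIF1A, eIF3 and eIF5. The cap-binding complex eIF4F recruits the mRNA, and eIF5B joins the large subunit. Elongation then runs on eEF1A, which delivers aminoacyl-tRNA, and eEF2, which moves the ribosome along. Haematopoietic stem cells are known for a low rate of protein synthesis compared with more mature progenitors.

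With all 6 libraries few of the factor mRNAs were called between the diets, and the called changes were small. Their share was not tested against that of all genes, and a gene without a call is not shown to be unchanged. By limma over all 10676 genes tested, 5 of the 59 passed an adjusted p of 0.05 (8.47%), against 13.9% of all genes tested. Eif2a rose, and Eif2s1, Eif4g1, Eif3j1 and Eif1ad fell, so that 1 member was higher and 4 were lower. Over all genes tested 6.28% were higher and 7.66% lower. Changes of the 5 called genes lay between 0.18 and 0.24 in size on the log2(FPKM + 1) scale, which understates change in low genes only slightly at these levels. The median change over the 59 members was -0.030, against -0.033 over all genes tested. For 57 of the 59 the 95% confidence interval of the change lay within 0.5 of 0 on that scale, the exceptions being Eif4a2 and Eif3j2. The 3 libraries of each diet did not overlap in 24 members (40.7%), 10 with HCD above CD and 14 with HCD below. Over all genes tested this held for 37.7%, with 15% above and 22.7% below.

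With the replicate number as a block, 10 members passed, 4 higher and 6 lower. The labels do not say that replicate numbers pair, and the block was taken from these same data. Calls gained with it are thus not independent support. The 5 genes added were Eif3f, Eef2 and Eif4e3, all higher, and Eif4a1 and Eif1ax, both lower. The background in that fit was 17.5%, with 7.88% higher and 9.67% lower. Without HCD replicate 2, 26 members passed (44.1%), 5 higher and 21 lower, against 25.4% of all genes tested, 11.3% higher and 14.1% lower. All 5 genes called with 6 libraries also passed in both of these fits. No member kept its call through every leaving-out of 1 library.

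**Figure D1:**
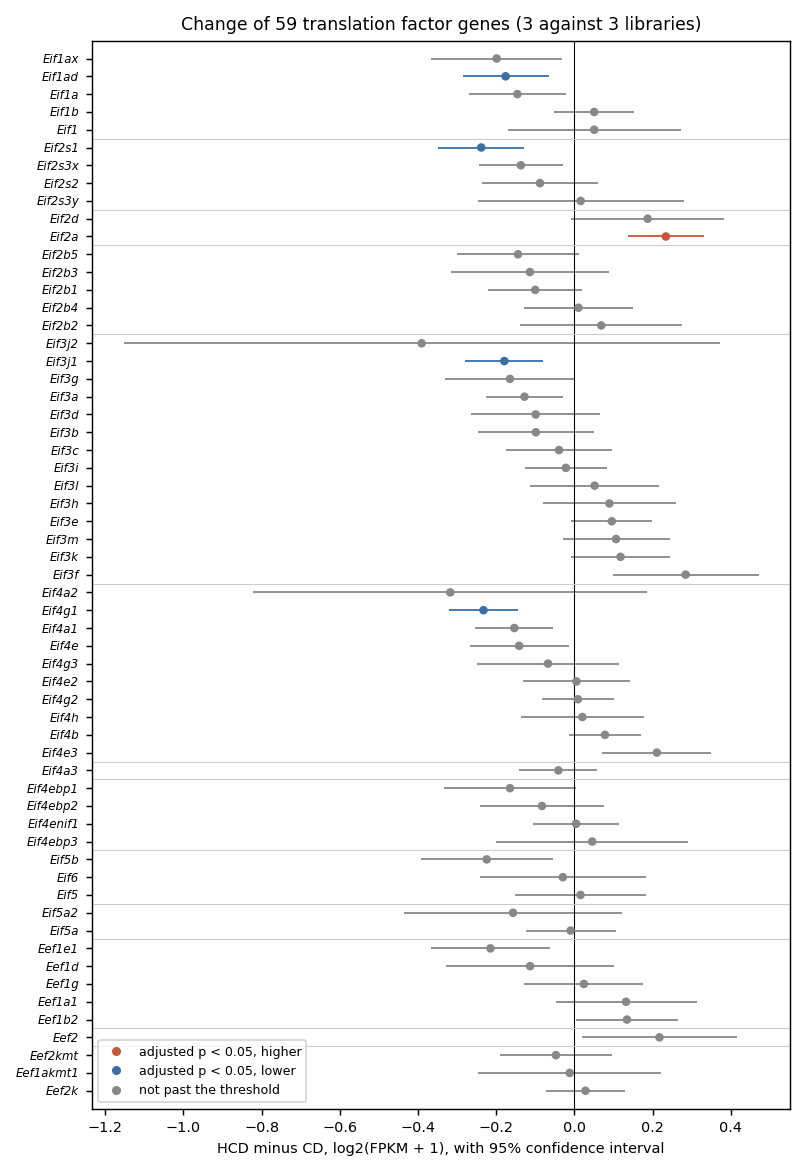
Change of each of the 59 factor genes between the diets, as HCD minus CD on the log2(FPKM + 1) scale with its 95% confidence interval from limma (3 against 3 libraries), grouped by role with grey lines between groups. Red marks the 1 gene that rose past an adjusted p of 0.05 and blue the 4 that fell, and the intervals of Eif4a2 and Eif3j2 are the widest.

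Among the factors that bring the initiator tRNA, the mRNA of the regulated eIF2 subunit fell and that of an eIF2-independent factor rose. Eif2s1 encodes eIF2 alpha, the subunit that stress kinases phosphorylate (chromosome 12, 78861819 to 78887010, GRCm38). It was at 52.1, 50.4 and 52.1 FPKM in CD replicates 1 to 3 and at 41.8, 45.6 and 43.3 in HCD. Every HCD library lay below every CD library, and the log2 change was -0.24 ± 0.048 (SE; limma adjusted p = 0.0152). The call was lost without CD replicate 1 (adjusted p = 0.0752), CD replicate 2 (0.0524), CD replicate 3 (0.0720) or HCD replicate 1 (0.0619). The other eIF2 subunits did not pass with all 6 libraries, but Eif2s2 and Eif2s3x passed as lower without HCD replicate 2. Eif2s2 (eIF2 beta) was at 59.3 ± 1.42 FPKM (SD, n = 3) in CD and 55.9 ± 5.03 in HCD (adjusted p = 0.388, and 0.0327 without HCD replicate 2). Eif2s3x, the X-linked gene of eIF2 gamma, was at 43.7 ± 1.16 and 39.6 ± 1.30 (adjusted p = 0.0881, and 0.0411 without HCD replicate 2). Its Y-linked copy Eif2s3y was expressed in all 6 libraries, at 22.2 ± 0.89 FPKM in CD and 22.7 ± 4.14 in HCD. Eif2s3y did not pass with or without HCD replicate 2 (adjusted p = 0.935 and 0.0867). The proteins of this pair are close relatives, and reads that both mRNAs share may have been split between them.

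Eif2a encodes eIF2A, a factor that can deliver initiator tRNA without eIF2 and without GTP (chromosome 3, 58525821 to 58557501). Its FPKM was 55.1, 57.2 and 55.4 in CD and 64.2, 67.5 and 66.1 in HCD. The groups were clearly parted, with a log2 change of 0.23 ± 0.043 (limma adjusted p = 0.0109). That call was lost without CD replicate 1 (adjusted p = 0.0623) or CD replicate 3 (0.0572). The gene overlaps Serp1 on the other strand in GENCODE vM21. The library kit keeps strand, but the labels do not say how the authors counted it. Eif2d, which encodes another factor able to place tRNA on the ribosome, was at 5.595, 4.98 and 5.599 FPKM in CD and 5.72, 6.33 and 6.81 in HCD, and did not pass (adjusted p = 0.178).

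The genes of eIF2B, the exchange factor that reloads eIF2 with GTP, had 0 of 5 past the threshold by limma, and 0 at an unadjusted p under 0.05. Their means ran from 3.82 FPKM for Eif2b3 and 15.6 for Eif2b4 to 38.6 for Eif2b2. The catalytic subunit gene Eif2b5 was at 36.3, 35.0 and 33.7 FPKM in CD and at 29.9, 35.0 and 30.03 in HCD. In it only HCD replicates 1 and 3 lay below the CD range (adjusted p = 0.189, and 0.00942 without HCD replicate 2). The summed eIF2B level was 112 ± 2.99 FPKM in CD and 109 ± 8.98 in HCD.

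Among the genes grouped here with eIF1 and eIF1A, only Eif1ad passed, and it fell. It encodes a protein with an eIF1A-like domain (chromosome 19, 5366741 to 5371526), and its FPKM went from 35.5, 35.2 and 33.7 in CD to 31.1, 31.3 and 29.7 in HCD. The log2 change was -0.18 ± 0.048 (adjusted p = 0.0445), close to the threshold. Leaving out CD replicate 1, 2 or 3 ended the call (adjusted p = 0.164, 0.146 and 0.0925), as did leaving out HCD replicate 1 or 3 (0.102 and 0.108). It also ended with median-ratio scaling of the libraries (0.101) and with no filter on low values (0.0600). Eif1ad overlaps Banf1 on the other strand. The eIF1A genes lay in the same direction without a call: Eif1ax was at 131, 144 and 132 FPKM in CD and 107, 130 and 119 in HCD, with no overlap (adjusted p = 0.106, and 0.0254 with the block). Its paralog Eif1a was at 40.6 ± 2.35 and 36.5 ± 1.05 FPKM. Without HCD replicate 2 both passed as lower (limma adjusted p = 0.00744 for Eif1ax and 0.0454 for Eif1a). Eif1, the gatekeeper of start codon choice and the most abundant of these mRNAs, was at 281, 270 and 286 FPKM in CD and 317, 242 and 314 in HCD. HCD replicate 2 was here the lowest of all 6 libraries and HCD replicates 1 and 3 the highest (adjusted p = 0.754, and 0.00444 without HCD replicate 2). The related Eif1b stayed between 61.9 and 66.8 FPKM in all libraries.

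eIF3 is the largest initiation factor, a scaffold of many subunits on the small ribosomal subunit, and 14 of its genes were members. Only Eif3j1 passed, which encodes the loosely bound subunit eIF3j (chromosome 2, 122028546 to 122056598). It was at 39.6, 39.7 and 40.0 FPKM in CD and 35.0, 34.2 and 35.8 in HCD, a log2 change of -0.18 ± 0.044 (adjusted p = 0.0297). The spread within each diet was small, with an SD of 0.24 in CD and 0.82 in HCD. The call was lost without CD replicate 1, 2 or 3 (adjusted p = 0.106, 0.103 and 0.116) or HCD replicate 1 (0.0895), after removal of the trend against transcript length (0.124) and with median-ratio scaling (0.0607). Eif3j1 overlaps Spg11 on the other strand. Its copy Eif3j2 was near the floor, at 1.53, 2.98 and 1.56 FPKM in CD and 1.06, 2.89 and 0.43 in HCD, or about 20 to 136 reads. Replicate 2 held the highest value in both diets, and reads of the 2 copies may be shared.

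The other 13 subunits went both ways. Eif3f was at 247, 257 and 235 FPKM in CD and 291, 341 and 272 in HCD, with the groups apart and HCD replicate 2 highest. Its log2 change of 0.28 ± 0.082 just missed the threshold (adjusted p = 0.0525), and it passed with the block (0.00909) and without HCD replicate 2 (0.0126). Eif3g, which encodes an RNA-binding subunit, was at 154, 155 and 156 FPKM in CD and 131, 157 and 129 in HCD. There HCD replicates 1 and 3 lay well under the CD values, while HCD replicate 2 lay just above them (adjusted p = 0.165, and 0.000478 without HCD replicate 2). The ratio of Eif3f to Eif3g, a pair chosen after the values were seen, was 1.504 to 1.66 in the CD libraries and 2.11 to 2.22 in all 3 HCD libraries. Eif3d, which encodes a subunit that can itself bind the cap, had the Eif3g pattern, at 109, 113 and 110 FPKM in the CD libraries and 96.8, 117 and 97.0 in the HCD libraries.

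Levels of the eIF3 subunits, compared per length, fell into a narrow band. Apart from the 2 genes of eIF3j, the means over 6 libraries ran from 107 ± 8.26 FPKM (SD, n = 6) for Eif3d to 274 ± 38.5 for Eif3f. Eif3h at 272 ± 22.4 and Eif3e at 249 ± 11.2 lay next to Eif3f. Eif3k (155), Eif3m (155), Eif3c (159) and Eif3b (159) also lay close together. These means pool the diets, and the order of some genes differed between them. Eif3h was above Eif3f in every CD library and below it in every HCD library. The same held for Eif3b against Eif3k. Whether such orders depend on diet was not tested. Without HCD replicate 2, 1 eIF3 gene passed as higher (Eif3f) and 7 as lower (Eif3a, Eif3b, Eif3c, Eif3d, Eif3g, Eif3j1 and Eif3j2). These 8 of 14 (57.1%) compare with 25.4% of all genes tested in that fit, 11.3% higher and 14.1% lower.

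**Figure D2:**
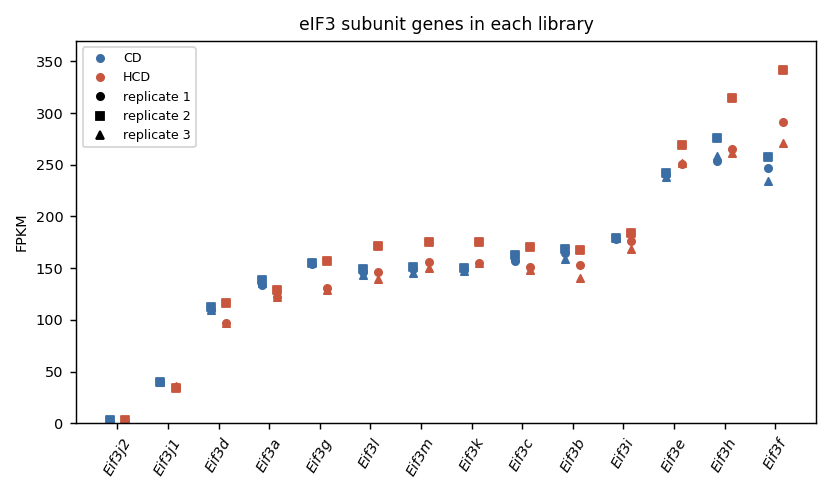
FPKM of the 14 eIF3 subunit genes in each library, ordered by mean, with CD in blue and HCD in red and the marker showing the replicate. Eif3f reaches 341 FPKM in HCD replicate 2 (square), which lies above HCD replicates 1 and 3 for most subunits, and Eif3j1 lies near 37 FPKM.

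In the cap-binding complex the scaffold mRNA fell. Eif4g1 encodes eIF4G1, which bridges the cap-binding protein, the helicase and eIF3 (chromosome 16, 20668313 to 20692884). It was at 102, 102 and 101 FPKM in CD and 87.4, 86.9 and 85.2 in HCD, every HCD library lying below CD. The log2 change was -0.23 ± 0.039 (adjusted p = 0.00816). It missed the threshold without CD replicate 1 (adjusted p = 0.0523) and after removal of the length trend (0.0593), its longest transcript being 5638 bp. Of the related scaffolds, Eif4g2, whose product initiates without the cap-binding protein, was at 167 ± 0.72 and 168 ± 4.16 FPKM. Eif4g3 was at 26.4 ± 1.16 and 25.2 ± 2.74. Their 95% intervals were -0.084 to 0.10 and -0.25 to 0.12 on the log2 scale.

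Eif4a1, the gene of the main eIF4A helicase, was at 522, 519 and 508 FPKM in CD and 470, 455 and 466 in HCD, without overlap. Its log2 change of -0.15 ± 0.044 lay at the threshold (adjusted p = 0.0512, 0.0487 with the block and 0.00566 without HCD replicate 2). Its paralog Eif4a2 was at 124, 109 and 124 FPKM in CD and 115, 61.5 and 122 in HCD. HCD replicate 2 lay far below the other libraries, and the ratio of Eif4a1 to Eif4a2 was 7.40 in it against 3.82 to 4.76 in the other 5 libraries. The log2 change of Eif4a2 was -0.32 ± 0.22 with all libraries and -0.0070 without HCD replicate 2. Eif4a3, the helicase of the exon junction complex, was at 132 ± 0.86 and 129 ± 4.91 FPKM. Eif4b, which encodes a cofactor of the helicase, was at 259 ± 1.63 and 274 ± 2.21, apart in all libraries but without a call (adjusted p = 0.219).

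The mRNA of the cap-binding protein itself was low beside most other factors, with a mean of 13.8 FPKM, and near the median of all tested genes (12.7). Eif4e was at 14.1, 15.03 and 14.5 FPKM in CD and 13.1, 13.1 and 13.1 in HCD, all HCD libraries lying below CD (adjusted p = 0.126). Eif4e2, whose product binds the cap and represses, was at 10.9 ± 0.41 and 10.99 ± 0.11 FPKM. Eif4e3 lay the other way, at 19.2, 19.9 and 20.2 FPKM in CD and 23.4, 21.4 and 24.4 in HCD, a log2 change of 0.21 ± 0.061 (adjusted p = 0.0536, 0.0467 with the block and 0.00577 without HCD replicate 2). Whether the 3 genes differ in their response was not tested.

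None of the 4 genes of eIF4E-binding proteins passed with all 6 libraries. Eif4ebp1, an inhibitor that mTORC1 switches off, was at 40.1, 40.3 and 38.4 FPKM in CD and 32.6, 39.8 and 33.7 in HCD. Only HCD replicates 1 and 3 lay below CD (adjusted p = 0.170, and 0.00364 without HCD replicate 2). Eif4ebp2 was at 61.3 ± 2.55 and 58.0 ± 5.58 FPKM, Eif4ebp3 at 9.91 ± 1.14 and 10.3 ± 1.32, and Eif4enif1, the eIF4E transporter gene, at 23.7 ± 0.33 and 23.8 ± 0.58. Without HCD replicate 2 Eif4ebp2 also passed as lower (limma adjusted p = 0.0269), while Eif4ebp3 (0.289) and Eif4enif1 (0.799) did not pass. Per length, Eif4ebp1 and Eif4ebp2 together exceeded Eif4e by 6.63-fold to 7.99-fold in the 6 libraries, and the range of the CD libraries (6.68 to 7.31) lay within that of HCD.

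Of the late initiation factors none passed with all 6 libraries. Eif5b, the subunit-joining GTPase gene, was at 31.2, 31.8 and 33.5 FPKM in CD and 25.6, 30.8 and 26.1 in HCD, below CD in every library (adjusted p = 0.0789, and 0.00225 without HCD replicate 2). With its longest transcript at 7797 bp, its adjusted p was 0.483 after removal of the length trend. Eif5, which encodes the GTPase activator of eIF2, was at 87.1 ± 2.98 and 88.4 ± 9.05 FPKM. Eif6, which encodes a factor that keeps the ribosomal subunits apart, was at 77.4 ± 3.81 and 76.3 ± 11.2. It passed as lower only without HCD replicate 2 (limma adjusted p = 0.0411, and 0.853 with all 6 libraries). Eif5a encodes the hypusine-bearing factor that helps the ribosome past difficult peptide bonds, and it was at 488 ± 4.14 and 486 ± 23.96 FPKM, with a 95% interval of -0.12 to 0.11 on the log2 scale. Its paralog Eif5a2 was near the floor, at 1.96 ± 0.31 and 1.65 ± 0.31.

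**Figure D3:**
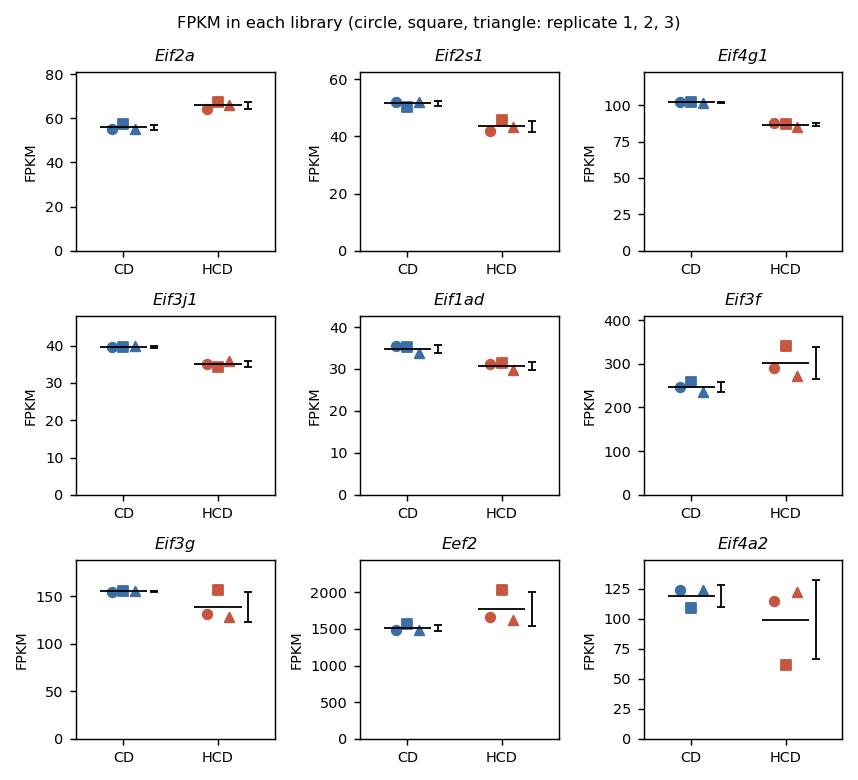
FPKM of 9 factor genes in each library, from 0, with the mean as a bar, the SD (n = 3) as a whisker beside it, and replicates 1, 2 and 3 as circle, square and triangle. The 5 called genes come first; in Eif3f, Eif3g, Eef2 and Eif4a2 the square of HCD replicate 2 lies away from the other HCD libraries, at 61.5 FPKM for Eif4a2.

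The mRNAs of eEF1A and eEF2 were the most abundant of the members, while those of the other elongation factors ranged from 35.3 FPKM (Eef1e1) to 891 (Eef1g). Eef1a1 was at 7676, 8019 and 7627 FPKM in CD and 8079, 9525 and 8031 in HCD, the highest level of any member, and it made up 47.4% to 50.2% of the FPKM of all members. The HCD libraries lay above CD, 2 of them by little, and the log2 change of 0.13 ± 0.079 did not pass (adjusted p = 0.290). Eef1a1 has many processed copies in the genome, so how reads of near-identical sequence were assigned can alter its level. Eef2 was at 1491, 1568 and 1489 FPKM in CD and 1660, 2037 and 1620 in HCD, again without overlap and with HCD replicate 2 on top. Its log2 change was 0.22 ± 0.087 (adjusted p = 0.131), or 0.11 without HCD replicate 2, where it passed (0.0220), as it did with the block (0.0415). All members together took 3.76% to 3.86% of the FPKM in CD and 3.78%, 4.10% and 3.79% in HCD replicates 1, 2 and 3.

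The exchange factor subunits of eEF1A were not called with all 6 libraries. Eef1b2 was at 541 ± 9.54 and 595 ± 39.6 FPKM (adjusted p = 0.153), Eef1g at 882 ± 13.1 and 899 ± 79.4, and Eef1d at 86.0 ± 4.19 and 79.9 ± 12.03. Without HCD replicate 2 Eef1d passed as lower (limma adjusted p = 0.00615), while Eef1b2 (0.0604) and Eef1g (0.213) did not pass. Eef1e1, which encodes a scaffold protein of the aminoacyl-tRNA synthetase complex, was at 35.9, 40.1 and 38.0 FPKM in CD and 33.0, 30.1 and 34.9 in HCD, below CD in all 3 (adjusted p = 0.0651). The regulators of elongation did not pass. Eef2k, the kinase that inhibits eEF2, was at 52.6 ± 1.23 and 53.6 ± 1.42 FPKM, and the methyltransferase genes Eef2kmt and Eef1akmt1 were at 15.3 ± 0.82 and 14.8 ± 0.57 and at 15.3 ± 2.06 and 15.1 ± 1.39.

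Replicate 2 set much of the spread among these genes. HCD replicate 2 lay above both other HCD libraries in 37 of the 59 members and below both in 14. Over all genes tested the shares were 36.3% and 46.9%. Of the 21 members that were lower without HCD replicate 2, 17 were not called with all 6 libraries. In all 17 HCD replicates 1 and 3 lay below every CD library, and in 11 of them HCD replicate 2 reached the CD range or exceeded it. The 17 were chosen by the fits with and without HCD replicate 2, so this pattern largely follows from the choice. It was not counted over all genes tested. Against the mean of HCD replicates 1 and 3, the lowest values of HCD replicate 2 on the log2 scale were those of Eif4a2 (-0.93), Eif2s3y (-0.43), Eif1 (-0.38), Eif4ebp3 (-0.28), Eif4g3 (-0.27), Eif5a2 (-0.27) and Eif5 (-0.26). In CD replicate 2 against CD replicates 1 and 3 these were -0.19, -0.086, -0.070, 0.21, -0.10, 0.24 and -0.078.

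The genes that lay high in replicate 2 include those whose mRNAs are known as TOP mRNAs, which begin with a C and an unbroken stretch of pyrimidines and are translated under the control of mTORC1. From textbook knowledge 10 members belong to this class (Eef1a1, Eef1b2, Eef1d, Eef1g, Eef2, Eif3a, Eif3e, Eif3f, Eif3h and Eif4b). In HCD replicate 2 all 10 lay above the mean of HCD replicates 1 and 3, by a median of 0.23 (0.020 to 0.36) on the log2 scale. In CD replicate 2 all 10 also lay above the mean of the other CD libraries, by a median of 0.052 (0.015 to 0.11). For the other 49 members the medians were 0.047 and 0.017. The 82 cytosolic ribosomal protein genes tested, which are TOP mRNAs as well, had medians of 0.21 and 0.045, and 79 and 78 of them were positive. For all genes tested they were -0.025 and -0.0080. Against the CD mean, the TOP members had medians of 0.059, 0.21 and 0.056 in HCD replicates 1, 2 and 3. By limma 0 of the 10 passed between the diets, against 13.9% of all genes tested, with a median log2 change of 0.093. An unadjusted limma p under 0.05 was found in 4, with Eef1b2, Eef2 and Eif3f higher under HCD and Eif3a lower (log2 change -0.13). That share was not counted over all genes tested. With quantile normalization the median change of the TOP members was 0.0037, that of Eef2 was 0.044 and that of Eef1a1 was 0. The median over the ribosomal protein genes went from 0.14 to 0.0018. This method gives genes of equal rank the same value in every library, and Eef1a1 had the highest mean of all tested genes. Its 0 was thus fixed by the method, which can also shrink changes of other very abundant genes. These values therefore cannot show that a change is absent. Of the 10 TOP members, 2 passed as higher with the block (20%), against 17.5% of all genes tested. Without HCD replicate 2, 2 of them passed as higher and 2 as lower (40%), against 25.4% of all genes tested. The cause of the difference between replicates was not tested.

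**Figure D4:**
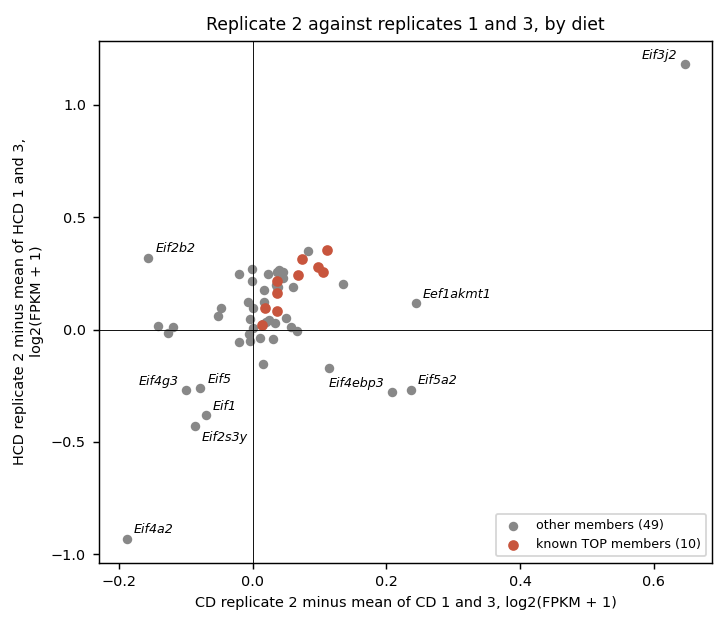
For each of the 59 members, replicate 2 minus the mean of replicates 1 and 3 on the log2(FPKM + 1) scale, in CD (horizontal) and HCD (vertical). The 10 known TOP members (red) all lie above 0 on both axes, and Eif4a2 lies lowest, at -0.93 in HCD and -0.19 in CD.

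Start sites of the members were read from RefSeq on GRCm38.p6 to see which have a pyrimidine stretch at or near them, since the replicate pattern touches this class. Of the 59 members 45 had an annotated start, and 10 of the 45 (22.2%) had a run of 8 or more C or T letters on the transcript strand touching the 10 bases on either side of it. A member with several annotated starts, such as Eif4e, counted when any of them had a run. The run could lie wholly before or after the start, so it does not show that the mRNA begins in pyrimidines. Among the 8330 tested genes with a start, 17.2% had such a run. Of the 10 known TOP members 6 had an annotated start, and only 2 of the 6 (Eef1a1 and Eif3f) had a run by this rule, while Eef1b2, Eef2, Eif3a and Eif4b had none. The 30 bases around the start are shown for these 6, for Eif3l, which has a run and lay high in HCD replicate 2, for the X and Y copies of the eIF2 gamma gene, which have a run and did not, and for Eif4a2, the lowest member in that library. Capitals mark the run, and each window holds 15 bases on either side of the annotated start.
Eef1a1: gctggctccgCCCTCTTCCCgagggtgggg
Eif3f: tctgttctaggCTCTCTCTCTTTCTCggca
Eef1b2: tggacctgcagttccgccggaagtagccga
Eef2: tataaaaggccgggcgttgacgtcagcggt
Eif3a: cggggctcgggcggcggcgctgccgccgcg
Eif4b: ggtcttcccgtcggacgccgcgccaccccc
Eif3l: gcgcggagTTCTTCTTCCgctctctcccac
Eif2s3x: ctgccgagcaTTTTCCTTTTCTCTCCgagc
Eif2s3y: gcggaggccacagccaCTTCCTTCTTTCgt
Eif4a2: ccgcggaaaccccgtaggagcagggcggcc

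The windows lie at chr9:78481710-78481739 (minus strand) for Eef1a1, chr7:108934400-108934429 for Eif3f, chr1:63176816-63176845 for Eef1b2, chr10:81176616-81176645 for Eef2, chr19:60790679-60790708 (minus strand) for Eif3a, chr15:102073758-102073787 for Eif4b, chr15:79075208-79075237 for Eif3l, chrX:94212637-94212666 (minus strand) for Eif2s3x, chrY:1010580-1010609 for Eif2s3y and chr16:23107453-23107482 for Eif4a2. The value of HCD replicate 2 minus the mean of HCD replicates 1 and 3 was 0.24 for Eef1a1, 0.28 for Eif3f and 0.26 for Eif3l. Among the TOP members without a run it was 0.31 for Eef2, 0.16 for Eef1b2, 0.082 for Eif3a and 0.020 for Eif4b. It was 0.032 for Eif2s3x and -0.43 for Eif2s3y. Over the 10 members with a run the median was 0.20 (-0.43 to 0.32), and over the 35 without it was 0.044 (-0.93 to 0.31). A run of letters is only a description, and annotated starts can differ from those used in these cells.

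Fold changes also followed transcript length. Members had a median longest transcript of 2726 bp (744 to 8134) and all tested genes with a length 3378 bp. Across the 59 members, which share the 6 libraries, Spearman's rho of length with the log2 change was -0.30, and it was -0.25 across 10354 tested genes. Without HCD replicate 2 these were -0.17 and -0.15. Of the called members, Eif4g1 and Eif3j1 have long transcripts (5638 and 5413 bp), while those of Eif2a, Eif2s1 and Eif1ad are 3432, 3405 and 2556 bp. The part of length in these changes was not tested beyond removal of the trend.

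Beyond the factors, 80 genes that act on them were tested, and 20 passed (25%), 5 higher and 15 lower, against 13.9% of all genes tested. With the length trend removed 14 passed (17.5%), 5 higher and 9 lower, against 12.7% of all genes with a length. Genes of the polyamines and of the modifications built on eIF5A and eEF2 had 0 risers and 6 fallers among 13 tested (46.2%), with a median log2 change of -0.21. The fallers were the polyamine genes Odc1, Azin1, Amd1, Srm and Sms, and of the modification enzymes only Dph2. Dph1, Dph3, Dph5, Dph6 and Dph7, like Dph2 genes of diphthamide synthesis on eEF2, were not called. With the length trend removed 4 of the 13 passed (30.8%), and the calls of Azin1 (adjusted p = 0.0548) and Sms (0.0572) were lost. Srm, the spermidine synthase gene, fell from 99.4 ± 5.39 to 78.6 ± 4.23 FPKM (adjusted p = 0.00900), and Amd1, the gene of the decarboxylase that supplies it, from 46.0 ± 0.56 to 37.3 ± 1.33 (adjusted p = 0.00611). Odc1, which makes putrescine, was at 101, 102 and 103 FPKM in CD and 88.6, 72.4 and 88.3 in HCD (adjusted p = 0.0355). Its call was lost without CD replicate 1, 2 or 3 (adjusted p = 0.111, 0.107 and 0.124) or HCD replicate 1 (0.05004). Azin1, which encodes a protein that shields the Odc1 product, fell from 28.9 ± 1.86 to 23.9 ± 0.38 (adjusted p = 0.0217). Sms (adjusted p = 0.0293) and Dph2 (0.0465) also fell. Over 14 fits, the main one included, Sms passed in 7 and Dph2 in 5. By contrast, the 2 enzymes that turn spermidine into hypusine on eIF5A were not called, with Dhps at 13.9 ± 0.61 and 14.2 ± 0.67 FPKM and Dohh at 25.8 ± 1.001 and 24.3 ± 2.14.

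In termination and recycling 1 of 7 genes rose and 2 fell (42.9% called), against 13.9% of all genes tested. Abce1, which encodes the ATPase that splits ribosomes after termination, was at 71.3, 71.7 and 72.0 FPKM in CD and 53.5, 55.2 and 56.0 in HCD, a log2 change of -0.38 ± 0.041 (adjusted p = 0.00130). This was a larger fall than that of any member past the threshold. Gspt1, the gene of release factor eRF3a, fell from 46.3 ± 0.48 to 38.0 ± 0.91 FPKM (adjusted p = 0.00581). N6amt1, which encodes a methyltransferase of the release factor eRF1, rose from 10.8 ± 0.69 to 15.02 ± 1.27 (adjusted p = 0.00981). The partner gene Etf1 (eRF1) was at 54.4 ± 1.08 and 49.3 ± 1.02 FPKM (adjusted p = 0.0645).

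**Figure D5:**
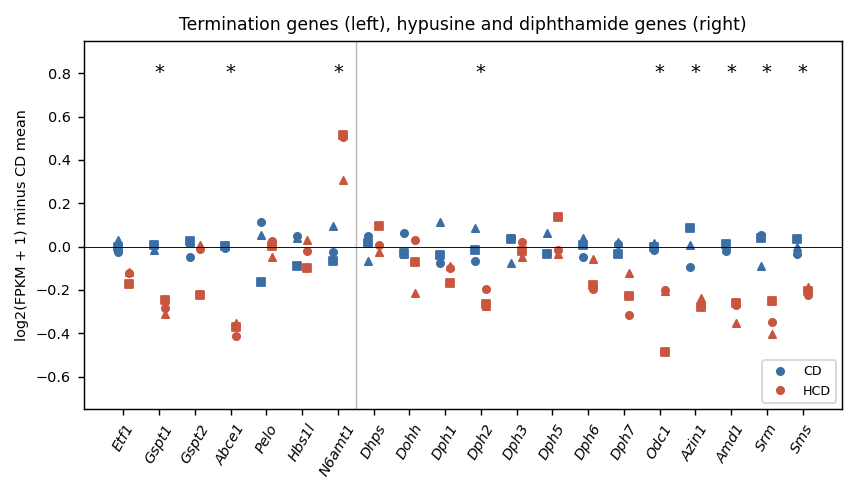
Log2(FPKM + 1) minus the CD mean in each library, CD in blue and HCD in red with circle, square and triangle for replicates 1 to 3, for 7 termination and recycling genes (left of the grey line) and 13 genes of hypusine, diphthamide and polyamine synthesis (right). Stars mark an adjusted p under 0.05; all HCD libraries of Abce1, Gspt1, Amd1, Srm and Sms lie below 0 and those of N6amt1 above.

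Among the genes that set eIF2 phosphorylation, 1 of 11 rose and 3 fell (36.4% called), against 13.9% of all genes tested. With the length trend removed the riser Ppp1r15a still passed, but none of the 3 that fell did (adjusted p = 0.0832 for Gcn1l1, 0.0866 for Eif2ak2 and 0.316 for Ppp1cb). Ppp1r15a, whose product brings a phosphatase to eIF2 alpha, was at 93.4, 90.4 and 96.0 FPKM in CD and 177, 112 and 174 in HCD (log2 change 0.69 ± 0.15, adjusted p = 0.0221), and HCD replicate 2 was its lowest HCD library. Gcn1l1, which encodes an activator of the kinase GCN2, fell from 26.2 ± 0.18 to 20.9 ± 0.72 FPKM (adjusted p = 0.00708). Eif2ak2 (PKR) fell from 20.9 ± 1.19 to 17.7 ± 0.49 (adjusted p = 0.0369), and the phosphatase gene Ppp1cb fell as well. The other eIF2 kinase genes Eif2ak1, Eif2ak3 and Eif2ak4 were not called, with means of 28.1, 6.13 and 14.1 FPKM.

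Of 15 regulators of the cap complex 1 rose and 2 fell (20% called), against 13.9% of all genes tested. With the length trend removed only the fall of Gigyf2 passed. Pdcd4, an inhibitor of eIF4A, was at 51.9, 53.5 and 49.3 FPKM in CD and 62.2, 71.3 and 56.9 in HCD (adjusted p = 0.0428). Larp1, which encodes a protein that binds TOP mRNAs, fell from 48.3 ± 1.13 to 40.8 ± 1.247 (adjusted p = 0.0125). Gigyf2, whose product represses with the cap-binding protein 4EHP, fell from 18.3 ± 0.195 to 14.3 ± 0.51 (adjusted p = 0.00745). In the scanning list 0 of 11 rose and 3 fell (Dhx29, Dhx9 and Abce1, the last counted above as well). These 3 were 27.3% of the list, against 13.9% of all genes tested. The helicase gene Dhx29 went from 11.9 ± 0.83 to 9.22 ± 0.64 FPKM (adjusted p = 0.0243). Of 24 genes of mTORC1 and its inputs 2 passed (8.33%), against 13.9% of all genes tested, and the difference in share was not tested. These were Deptor, which rose from 5.09 ± 0.45 to 6.98 ± 0.62 FPKM (adjusted p = 0.0256), and Sesn2, which rose from 3.82 ± 0.51 to 5.10 ± 0.19 (adjusted p = 0.0441). Both encode inhibitors of the pathway, but other inhibitor genes of the list were not called and lay both ways. The log2 changes were -0.19 for Tsc1, -0.074 for Tsc2, -0.13 for Sesn1 and -0.022 for Ddit4. They were 0.024 for Akt1s1, 0.068 for Sesn3 and 0.30 for Tbc1d7. Mtor was at 11.3 and 10.1 FPKM (adjusted p = 0.273).

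Of the 20 calls beyond the members, 7 were left when CD replicate 1, 2 or 3 or HCD replicate 1 was left out, 13 without HCD replicate 3 and 20 without HCD replicate 2. Those of Abce1, Amd1, Gigyf2 and Gspt1 stayed past the threshold in all 13 alternatives, and that of Gcn1l1 in all but the removal of the length trend.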

How the data were processed

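RNA-seq of 6 libraries, 3 per diet, was used as 1 table per library. The authors deposited these FPKM values, which per the submitters' processing notes come from fastp, HISAT2 and StringTie with builds GRCm38 and mm10. Versions, annotation, strand setting and filters were not given in the sources used here. Libraries were made with a TruSeq Stranded mRNA kit, per the labels' protocols. Of 21878 rows, 27 whose symbols had become dates (0.127% of FPKM) were left out. Genes with at least 1 FPKM in 3 libraries were tested on log2(FPKM + 1) with limma 3.58.1 in R 4.3.3, HCD against CD, with Benjamini-Hochberg adjustment over all tested genes and a threshold of 0.05. The fit was tested on simulated data. Members and lists were chosen with earlier results of these data known. Pathway genes named are up to 4 with the smallest p in each list; other pathway genes (such as Etf1, Mtor, Dhps, Dohh, Sms, Dph2 and 3 eIF2 kinase genes) were named after their values were seen. Same-numbered libraries of the diets deviated together (correlations 0.103, 0.292 and 0.166; other pairs -0.25 to 0.0983); the labels do not say that numbers pair, so the pairing comes from the data. Alternatives were another pseudocount, other filters, quantile and median-ratio scaling, removal of the length trend, the replicate block and leaving out each library. Read counts were not recovered, since only 32.5% to 38.2% of low values of single-transcript genes were whole reads within 0.02, so depth is an estimate.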

Additional observations from a re-analysis of the deposited data

How the results depend on the processing

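Of the 59 members, 5 passed the threshold, 1 higher and 4 lower. With the replicate block 10 passed, 4 higher and 6 lower; it ended none of the 5 calls and, among the pathway genes, only that of Dph2 (adjusted p = 0.0555), and changed no call other than those named here and in the text. With the length trend removed 3 passed, 2 of them lower. With median-ratio scaling 2 were higher and 2 lower, and with quantile normalization 2 were higher. Leaving out 1 library gave 0 to 26 members past the threshold (0 to 5 higher, 0 to 21 lower) and 439 to 2707 of all genes, against 1488 with all 6 (1873 with the block). The extremes were the fits without CD replicate 1 (0 members, 439 genes) and without HCD replicate 2 (26 members, 2707 genes). The median member change ran from -0.052 with quantile normalization to 0.0016 with median-ratio scaling. The cause of these shifts was not tested. Over 30 of the members (the called genes, paralog pairs and the most abundant gene of each role), 326 values under an alternative kept direction and side of the threshold, 23 gained a call, 21 lost one and 18, in 8 members, changed sign with no call before or after. Of those 8, Eif1 was at -0.068 and Eif5 at -0.0071 with quantile normalization, Eif1b at -0.011 and Eif4g3 at 0.047 with the length trend removed, and Eif5a at 0.022 with median-ratio scaling. Leaving out 1 library gave -0.016 to 0.18 for Eif1, -0.038 to 0.12 for Eif2b2, -0.096 to 0.16 for Eif2s3y, -0.023 to 0.025 for Eif4e2, -0.12 to 0.022 for Eif4g3, -0.028 to 0.10 for Eif5 and -0.050 to 0.011 for Eif5a. With 3 libraries a diet, precision is limited by their number, and low genes such as Eif3j2 by reads.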
